A study of Homo sapiens with 12 samples.

Results

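The genes described here are 30 genes of homologous recombination and of the Fanconi anaemia pathway, the cell's machinery for mending DNA double-strand breaks and DNA interstrand crosslinks. They were taken by symbol from a list: each Ensembl identifier in the deposited tables that maps to a listed symbol is a member, and all 30 were found among 37247 identifiers. The samples were 2 human cancer cell lines, TPC-1 from a papillary thyroid cancer and LC-2/ad from a lung cancer, both known to carry a fusion of the RET receptor tyrosine kinase gene. Each line was grown with 100 nM of the RET inhibitor selpercatinib for 48 h (treated cells) or as parent cells whose treatment is given as none, with 3 libraries in each of the 4 groups. The labels do not say whether parent cells received the drug's solvent, nor whether libraries of the same group were made from different cultures. The p-values therefore measure the spread between these libraries, which may be technical. Expression is given in TPM, a library's transcripts scaled to a fixed total, so that it is a level already divided by transcript length.

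In homologous recombination a broken DNA end is trimmed back to single-stranded DNA, BRCA1, BARD1, PALB2 and BRCA2 load a recombinase filament onto it, and the filament searches the sister chromatid for the matching sequence. The Fanconi pathway recognises DNA strands joined by a crosslink. Its core complex attaches ubiquitin to FANCD2 and FANCI, after which nucleases and recombination complete the repair. Both systems act mainly while DNA is being copied and shortly after, and transcription of many of their genes is known to follow the cell cycle through E2F, B-MYB and NF-Y factors acting near the start of the gene.

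The sequences around the starts of these genes were examined because the members moved together in one line. RefSeq windows (GRCh38.p14, 250 bases before to 50 bases after each annotated start) were matched for 27 of the 30 members, all but FANCI, RAD54B and RMI2. A match on either strand to an E2F-type sequence (TTTGGCGC, TTTCCCGC, TTTGCCGC or TTTCGCGC) was present for 7 of the 27 members (25.9%), and for 1090 of 27305 genes in the same table (3.99%). The CHR element (TTTGAA) was matched for 3 members, BRIP1, FANCC and UBE2T (11.1%, against 18.2% of all genes). The NF-Y box (CCAAT) was matched for 12 members (44.4%, against 39.7% of all genes). These are matches of letters, not measured binding sites. The E2F-type matches are printed below 5′ to 3′ in the direction of the match, with the matched letters in capitals and 10 bases on each side, and FANCC held a pair of them.
EXO1 (chr1:241848198-241848225): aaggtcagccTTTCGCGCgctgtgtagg
FANCA (chr16:89816802-89816829): tgcgtttggcTTTGCCGCcgcggtgtag
FANCC (chr9:95317864-95317891): gtgttcccggTTTCGCGCggaagccccg
FANCC (chr9:95317738-95317765): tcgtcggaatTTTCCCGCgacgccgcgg
FANCD2 (chr3:10026425-10026452): agttttcgacTTTCCCGCcaggcccgac
MND1 (chr4:153344644-153344671): cgcgtttgatTTTGGCGCcgactacgcc
RMI1 (chr9:83980763-83980790): tcccgcccgaTTTGCCGCgcgctcgcgc
XRCC2 (chr7:152676103-152676130): gagactcaacTTTCCCGCcaccaacgcc
EXO1, FANCA, FANCC on its first line and XRCC2 are read from the plus strand of the chromosome, the other 4 from the minus strand. Counted along the gene from its first listed start, the matches of EXO1, MND1 and XRCC2 began at bases 5, 6 and 22, and that of FANCD2 spanned the start. The matches of MND1 and RMI1 lie before a second listed start of each gene, and that of RMI1 lies after its first listed start.

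The 180 bases before the outermost annotated start are shown for 4 members chosen for how their transcripts behaved. FANCA and UBE2T were among the largest falls in LC-2/ad, XRCC3 was intermediate, and FANCF was the only member whose mean was higher in treated than in parent LC-2/ad cells. All 4 genes lie on the minus strand and the sequences run 5′ to 3′ towards the gene, with matches to any of the 3 motifs, on either strand, in capitals.
FANCA (chr16:89816658-89816837): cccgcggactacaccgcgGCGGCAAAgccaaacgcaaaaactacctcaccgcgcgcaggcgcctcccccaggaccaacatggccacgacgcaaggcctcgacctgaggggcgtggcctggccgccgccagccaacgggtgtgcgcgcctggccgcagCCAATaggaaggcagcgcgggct
UBE2T (chr1:202341981-202342160): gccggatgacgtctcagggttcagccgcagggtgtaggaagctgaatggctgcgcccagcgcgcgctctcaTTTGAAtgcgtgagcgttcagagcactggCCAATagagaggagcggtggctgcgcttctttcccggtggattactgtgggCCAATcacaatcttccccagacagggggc
XRCC3 (chr14:103715505-103715684): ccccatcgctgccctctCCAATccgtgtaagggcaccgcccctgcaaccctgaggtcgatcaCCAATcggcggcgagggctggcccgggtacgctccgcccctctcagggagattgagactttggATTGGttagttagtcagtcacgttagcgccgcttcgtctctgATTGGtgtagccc
FANCF (chr11:22625842-22626021): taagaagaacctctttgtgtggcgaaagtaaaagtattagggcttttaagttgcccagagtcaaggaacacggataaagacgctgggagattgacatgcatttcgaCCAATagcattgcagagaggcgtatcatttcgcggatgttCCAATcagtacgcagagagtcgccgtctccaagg
The CCAAT box occurred in all 4 printed windows, FANCF included. Among the 27 matched members the median log2 fold change in LC-2/ad was -1.35 for the 7 with an E2F-type match (-1.83 to -0.33) and -0.85 for the 20 without one (-1.60 to 0.075). The NF-Y box gave -1.16 for the 12 with and -0.81 for the 15 without a match, and the CHR element -1.16 for the 3 with and -0.92 for the 24 without. The ranges with and without a match overlapped for each of the 3 motifs.

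In LC-2/ad the recombination and Fanconi transcripts fell almost as a whole. Of the 30 members, 27 fell, none rose and 3 did not pass the test. Members that passed were at 25.1% (MND1) to 77.9% (FANCC) of their parent mean, and 19 of the 30 were at or under 50% of it. The test was limma on log2(TPM + 1) with Benjamini-Hochberg adjustment over all 14118 genes with a mean of at least 1 TPM, and a gene passed at an adjusted p under 0.05. Much of the transcriptome of this line differed between treated and parent cells, so these counts stand against a high background: 55.0% of all genes tested passed, 24.4% lower and 30.6% higher. Under median-of-ratios scaling the whole table split the other way, 3442 higher and 4318 lower, against 4319 higher and 3451 lower without it. The median log2 fold change (treated minus parent, on the log2(TPM + 1) scale, which understates changes of low genes) was -1.03 over the 30 members and 0.066 over all genes tested. Treated and parent libraries did not overlap for those same 27 members, treated lower, as was so for 27.6% of all genes (35.3% did not overlap with treated higher). In bulk RNA, fewer cells that express a gene and less RNA per cell cannot be told apart. The share of TPM from mitochondrial DNA was 14.0 to 14.95% in treated and 9.72 to 9.83% in parent LC-2/ad libraries. With those transcripts removed and TPM rescaled, 27 members fell. The sum of the 30 members was 361, 338 and 357 TPM in treated libraries, against 772, 774 and 755 TPM in parent libraries, so the treated mean was 45.9% of the parent mean.

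**Figure D1:**
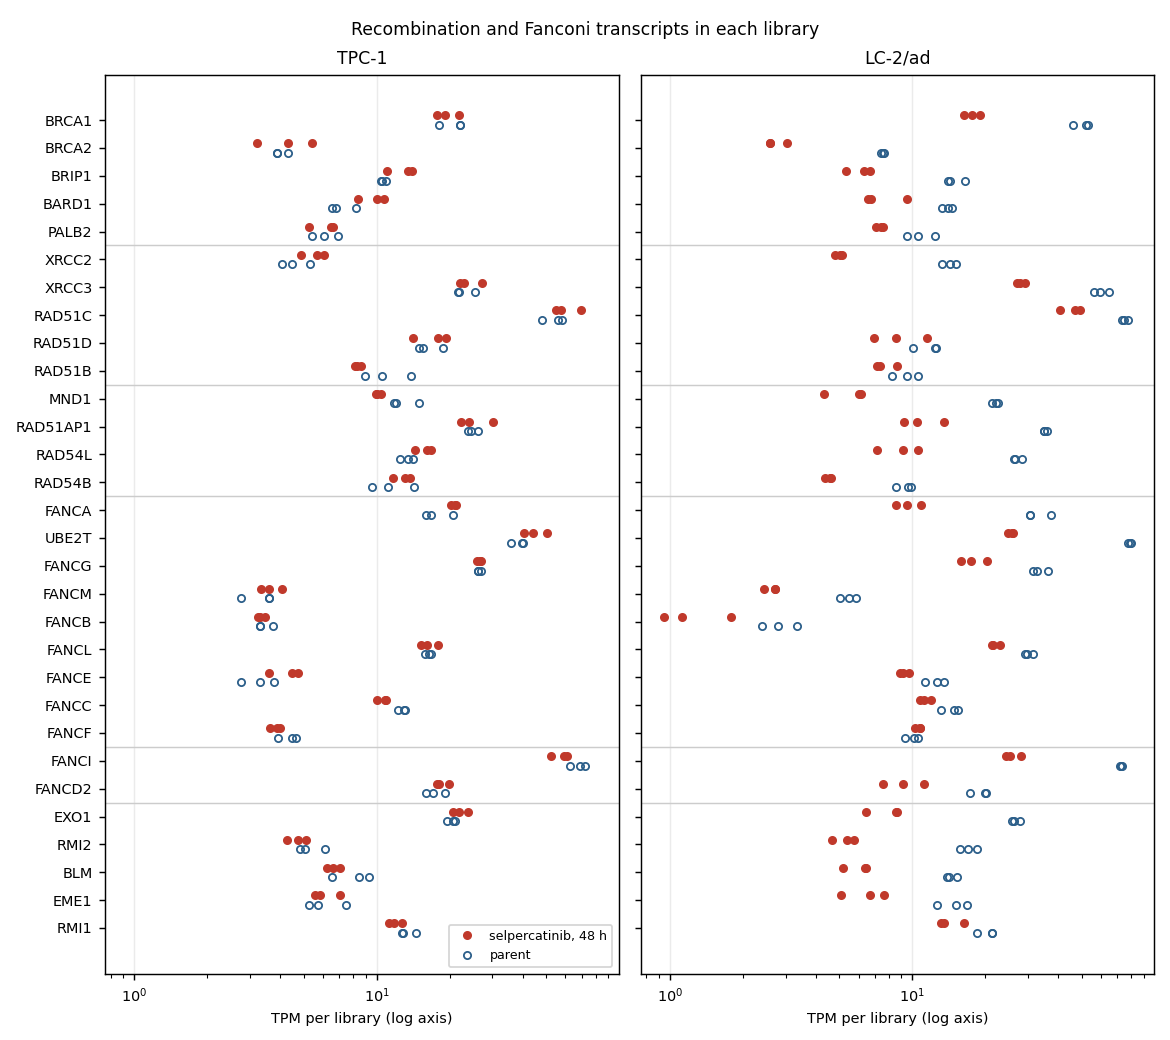
TPM of each of the 30 genes in each of the 12 libraries, on a log axis, with TPC-1 on the left and LC-2/ad on the right. Filled red points are treated libraries and open blue points parent libraries, and genes are grouped by function. In LC-2/ad the red and blue points separate for 27 genes, and in TPC-1 they lie among each other for 21.

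The BRCA complex and the mediators that load the recombinase fell in LC-2/ad in all 5 members. BRCA1 (chr17:43044295-43170245, minus strand), the ubiquitin ligase that channels breaks into recombination, had 16.4, 17.5 and 19.1 TPM in treated libraries, against 51.9, 52.9 and 46.1 TPM in parent libraries (means 17.7 ± 1.34 and 50.3 ± 3.68, SD, n = 3 each, log2 fold change -1.46, SE 0.078, limma adjusted p = 4.22e-06). BRCA2 (chr13:32315474-32400266), which delivers the recombinase to single-stranded DNA, had 2.58, 2.58 and 3.03 TPM in treated libraries, against 7.59, 7.42 and 7.64 TPM in parent libraries (-1.20, SE 0.10, limma adjusted p = 4.64e-05). BRIP1, a helicase that binds BRCA1, had 5.32, 6.68 and 6.32 TPM in treated libraries, against 14.0, 14.3 and 16.4 TPM in parent libraries (-1.16, SE 0.11, limma adjusted p = 6.27e-05). The highest treated library of each of these 3 genes lay below its lowest parent library by a wide margin. BARD1, the obligate partner of BRCA1, fell less: it had 6.56, 6.75 and 9.54 TPM in treated libraries, against 14.6, 14.0 and 13.2 TPM in parent libraries (-0.81, SE 0.13, limma adjusted p = 0.00144). PALB2, the bridge between BRCA1 and BRCA2, fell least, with 7.56, 7.42 and 7.06 TPM in treated libraries, against 12.4, 9.52 and 10.5 TPM in parent libraries (-0.49, SE 0.11, limma adjusted p = 0.00507). The annotation places a pseudogene with sequence like BRCA1, BRCA1P1, inside the BRCA1 span. It was at 15.9, 25.5 and 11.5 TPM in treated and 24.8, 3.06 and 0 TPM in parent LC-2/ad libraries, so how reads were shared between them is uncertain.

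The paralogs of the recombinase, which form small complexes that stabilise its filament, behaved unequally. XRCC2, XRCC3 and RAD51C fell in LC-2/ad, and RAD51B and RAD51D did not pass. XRCC2 (chr7:152644779-152676165, minus strand) had 5.01, 4.79 and 5.13 TPM in treated libraries, against 13.3, 14.3 and 15.2 TPM in parent libraries (-1.35, SE 0.086, limma adjusted p = 9.55e-06). XRCC3 had 29.1, 27.1 and 27.9 TPM in treated libraries, against 64.9, 56.3 and 59.6 TPM in parent libraries (-1.08, SE 0.065, limma adjusted p = 7.26e-06). RAD51C, the most abundant of the 5 and a part of both paralog complexes, had 49.3, 40.5 and 46.8 TPM in treated libraries, against 73.5, 77.7 and 74.6 TPM in parent libraries (-0.72, SE 0.074, limma adjusted p = 1.17e-04). For these 3 genes every treated library was below every parent library. RAD51D had 11.5, 6.93 and 8.58 TPM in treated libraries, against 12.6, 12.3 and 10.1 TPM in parent libraries (-0.36, SE 0.17, limma adjusted p = 0.104), and treated library 1 lay among the parent libraries. Without that library its value was -0.53 with an adjusted p of 0.0157. RAD51B had 7.18, 7.33 and 8.67 TPM in treated libraries, against 9.51, 10.6 and 8.24 TPM in parent libraries (-0.26, SE 0.12, limma adjusted p = 0.0934), and it passed with median-of-ratios scaling (-0.34, adjusted p = 0.0364).

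The factors that help the filament exchange strands showed the steepest change of any group in LC-2/ad, with 4 of 4 lower and a summed level at 32.1% of that in parent cells. MND1 (chr4:153344649-153415118), known chiefly as a partner of PSMC3IP in meiotic recombination, had the largest fall of all 30 genes, with 4.33, 6.16 and 6.04 TPM in treated libraries, against 22.1, 22.6 and 21.2 TPM in parent libraries (-1.83, SE 0.12, limma adjusted p = 1.24e-05). RAD51AP1 (chr12:4538798-4560048), which promotes pairing of the filament with its template, had 13.5, 10.4 and 9.24 TPM in treated libraries, against 35.0, 34.9 and 35.8 TPM in parent libraries (-1.60, SE 0.12, limma adjusted p = 2.35e-05). RAD54L, a motor protein that remodels the paired DNA, had 10.6, 7.15 and 9.12 TPM in treated libraries, against 26.5, 28.2 and 26.3 TPM in parent libraries (-1.50, SE 0.12, limma adjusted p = 3.73e-05). Treated levels of these 3 genes were at 25.1%, 31.4% and 33.2% of their parent means. Their relative RAD54B had 4.55, 4.34 and 4.63 TPM in treated libraries, against 9.84, 9.60 and 8.58 TPM in parent libraries (-0.91, SE 0.093, limma adjusted p = 1.15e-04).

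The Fanconi core complex and its E2 enzyme spanned large and small changes in LC-2/ad, with 8 of 9 lower. UBE2T (chr1:202331657-202341980, minus strand), the ubiquitin-conjugating enzyme of the pathway, had 26.1, 25.8 and 24.8 TPM in treated libraries, against 79.8, 79.3 and 77.2 TPM in parent libraries (-1.59, SE 0.047, limma adjusted p = 3.64e-07, the lowest of the 30). FANCA (chr16:89737549-89816657, minus strand), a scaffold of the core complex, had 8.55, 10.9 and 9.54 TPM in treated libraries, against 37.4, 30.4 and 30.6 TPM in parent libraries (-1.67, SE 0.11, limma adjusted p = 1.20e-05). FANCG, which binds FANCA, had 17.5, 15.9 and 20.4 TPM in treated libraries, against 32.7, 36.1 and 31.4 TPM in parent libraries (-0.87, SE 0.10, limma adjusted p = 1.88e-04). In none of these 3 did a treated library reach a parent library. FANCM, the translocase that anchors the complex on damaged DNA, had 2.71, 2.45 and 2.71 TPM in treated libraries, against 5.46, 5.03 and 5.88 TPM in parent libraries (-0.83, SE 0.11). FANCB, part of the catalytic module with FANCL, was the least abundant member, with 0.946, 1.12 and 1.79 TPM in treated libraries, against 2.40, 2.79 and 3.35 TPM in parent libraries (-0.76, SE 0.19).

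Smaller falls were seen for the ligase itself and for the substrate-binding side of the core complex. FANCL, the ubiquitin ligase subunit, had 23.0, 21.5 and 21.3 TPM in treated libraries, against 29.7, 29.1 and 31.4 TPM in parent libraries (-0.44, SE 0.060). FANCE, which contacts FANCD2, had 9.17, 8.85 and 9.73 TPM in treated libraries, against 11.2, 13.5 and 12.7 TPM in parent libraries (-0.39, SE 0.090). FANCC, its partner, had 11.9, 10.7 and 11.2 TPM in treated libraries, against 13.1, 14.8 and 15.4 TPM in parent libraries (-0.33, SE 0.085, limma adjusted p = 0.0119, the highest among the 27 members that passed). FANCF, the adaptor that joins them to the rest of the complex, did not pass and had 10.7, 10.7 and 10.3 TPM in treated libraries, against 9.32, 10.1 and 10.5 TPM in parent libraries (0.075, SE 0.079, limma adjusted p = 0.446). The 95% interval of its log2 fold change ran from -0.11 to 0.26, and its sign turned to -0.012 with median-of-ratios scaling.

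Both subunits of the ID2 complex, the clamp that the core complex ubiquitinates, fell in LC-2/ad. FANCI (chr15:89243949-89317261) had 28.0, 24.4 and 25.2 TPM in treated libraries, against 72.4, 73.3 and 71.6 TPM in parent libraries (-1.45, SE 0.061, limma adjusted p = 1.43e-06). FANCD2 (chr3:10026414-10101930) had 9.11, 7.59 and 11.2 TPM in treated libraries, against 17.3, 20.2 and 20.0 TPM in parent libraries (-0.98, SE 0.13, limma adjusted p = 4.92e-04). FANCI overlaps POLG on the opposite strand. XRCC3, RAD54L, FANCA, FANCL, RMI2 and EME1 likewise overlap KLC1, LRRC41, ZNF276, VRK2, SOCS1 and LRRC59, and whether the libraries kept strand is not given in the sources used here, so reads of such pairs may not be separable.

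The 5 members of end resection, dissolution and resolution, which act at the beginning and the end of recombination, all fell in LC-2/ad. EXO1 (chr1:241847967-241895148), a nuclease of long-range end resection, had 8.64, 8.57 and 6.46 TPM in treated libraries, against 26.2, 25.7 and 27.8 TPM in parent libraries (-1.64, SE 0.11, limma adjusted p = 1.26e-05). BLM, the helicase that dissolves joined DNA molecules, had 5.19, 6.44 and 6.37 TPM in treated libraries, against 14.0, 15.3 and 14.2 TPM in parent libraries (-1.15, SE 0.10, limma adjusted p = 4.58e-05). Its 2 small partners differed: RMI2 had 4.68, 5.73 and 5.36 TPM in treated libraries, against 18.5, 17.0 and 15.7 TPM in parent libraries (-1.53, SE 0.10, limma adjusted p = 1.12e-05). RMI1 stayed closer to its parent level, with 13.5, 16.3 and 13.1 TPM in treated libraries, against 18.5, 21.3 and 21.4 TPM in parent libraries (-0.48, SE 0.10, limma adjusted p = 0.00439). EME1, the partner of the nuclease MUS81 in cutting joined molecules apart, had 7.60, 5.07 and 6.67 TPM in treated libraries, against 16.8, 15.1 and 12.6 TPM in parent libraries (-1.09, SE 0.15, limma adjusted p = 5.58e-04). Every treated library of the 5 genes was below every parent library. MUS81 itself, which is no member, rose (0.34, SE 0.079, limma adjusted p = 0.00736).

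By functional group, the median log2 fold change in LC-2/ad was -1.55 for the strand exchange factors, -1.22 for the ID2 pair, -1.16 for the BRCA group, -1.15 for resection, dissolution and resolution, -0.76 for the core complex with UBE2T and -0.72 for the paralogs. Summed levels ran in the same order, from 32.1% of the parent sum for the strand exchange factors to 55.8% for the paralogs. Differences between the groups were not tested. Across the 30 genes, those with more RNA in parent LC-2/ad cells tended to have larger falls, with a Pearson r of -0.436 between log2 parent level and log2 fold change. This is a description over 30 genes of the same 6 libraries, and the pseudocount of 1 shrinks the changes of low genes. The parent level also enters both measures, with opposite sign in the fold change, which by itself pushes r below 0. No conclusion is drawn from r.

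**Figure D2:**
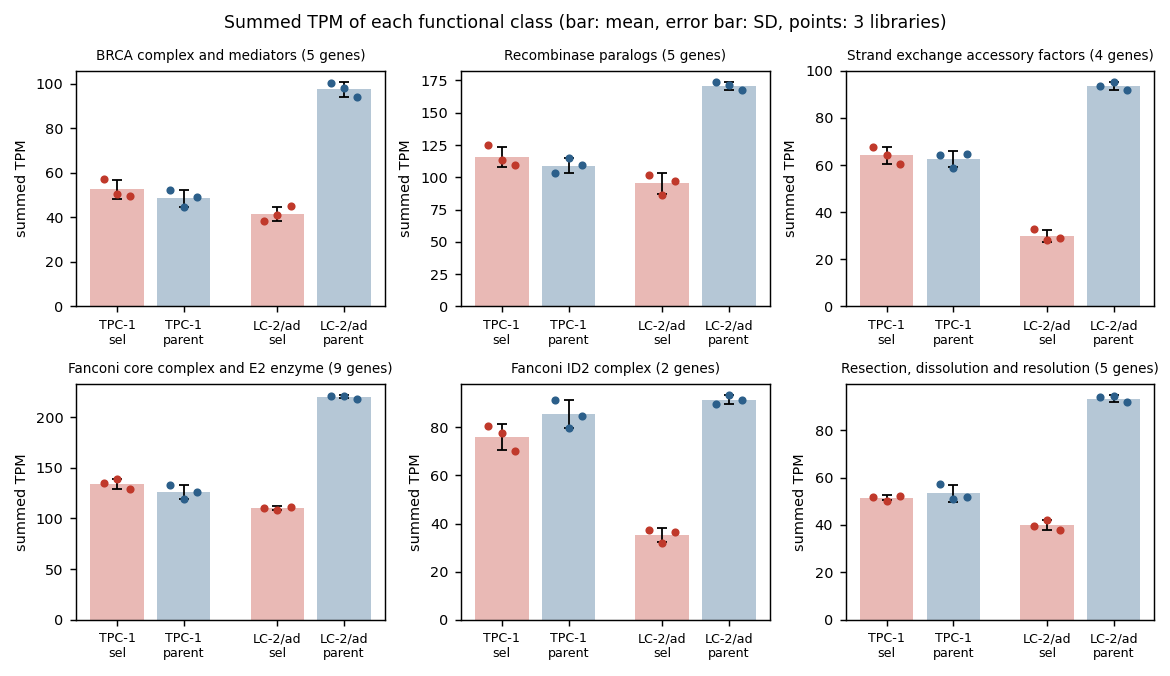
Summed TPM of the members of each functional group in each library, with bars at the mean and error bars at the SD of 3 libraries. From left to right the bars are treated (sel) and parent TPC-1 cells, then treated and parent LC-2/ad cells. In every panel the treated LC-2/ad bar is the lowest of the 4, and the TPC-1 bars lie close together.

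In TPC-1 none of the 30 members passed the same test, which was run on 12825 genes of which 4.96% passed (1.21% lower and 3.75% higher). Those were 481 higher and 155 lower genes, against 420 higher and 254 lower with median-of-ratios scaling. By limma, 6 members (20.0%) had an unadjusted p under 0.05, near the 21.5% of all genes tested (2753), RAD51B, MND1, FANCC and FANCI with lower and BARD1 and UBE2T with higher treated means, and the lowest adjusted p of the 30 was 0.125. The median log2 fold change was 0.040 over the members and 0.048 over all genes tested. The sum of the 30 members was 517, 495 and 471 TPM in treated libraries, against 501, 468 and 487 TPM in parent libraries, so that both groups overlapped. A missed threshold does not show that levels were equal, but the intervals bound the change: for 27 of the 30 members the 95% interval excluded a fall of 0.5 on the log2 scale, and over all 30 the intervals reached from -0.69 to 0.68. Treated means were 75.2% to 135% of parent means. Groups did not overlap for 9 members, 5 with treated lower and 4 with treated higher, where 9.23% and 16.6% of all genes tested were so. TPC-1 parent library 1 stood apart from the other parent libraries on the first principal component (-4.93, against -23.3 and -17.7), and without it no member passed either.

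Individual levels in TPC-1 are given for the genes with the largest changes in LC-2/ad. MND1 had 9.94, 10.0 and 10.4 TPM in treated libraries, against 14.9, 11.8 and 12.05 TPM in parent libraries (-0.32, SE 0.11, limma adjusted p = 0.141). FANCA had 21.01, 20.3 and 21.3 TPM in treated libraries, against 20.6, 16.8 and 16.0 TPM in parent libraries (0.23, SE 0.10, limma adjusted p = 0.253). EXO1 had 20.6, 21.7 and 23.8 TPM in treated libraries, against 20.7, 21.04 and 19.4 TPM in parent libraries (0.11, SE 0.084, limma adjusted p = 0.521). FANCA and EXO1 were thus at similar or slightly higher values in treated TPC-1 cells with overlapping groups, and MND1 was lower in all 3 treated libraries. RAD51AP1 had 30.2, 24.0 and 22.3 TPM in treated libraries, against 26.1, 23.8 and 24.4 TPM in parent libraries (0.028, SE 0.11). UBE2T had 44.0, 50.3 and 40.5 TPM in treated libraries, against 40.2, 35.8 and 39.9 TPM in parent libraries (0.21, SE 0.091, limma adjusted p = 0.225). BRCA1 had 21.9, 19.2 and 17.8 TPM in treated libraries, against 22.1, 18.1 and 21.9 TPM in parent libraries (-0.076, SE 0.11). Each treated UBE2T value exceeded each parent value by a small margin, and the BRCA1 and RAD51AP1 groups overlapped. RAD54L, with 14.3, 16.7 and 16.0 TPM in treated and 12.4, 13.5 and 14.1 TPM in parent libraries, and RMI2, with 4.25, 5.11 and 4.75 TPM in treated and 6.10, 5.07 and 4.82 TPM in parent libraries, also stayed within 0.22 log2 units of no change.

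The BRCA group, the paralogs and RAD54B also stayed short of the threshold in TPC-1. BRCA2 had 5.39, 3.20 and 4.29 TPM in treated TPC-1 libraries, against 3.88, 3.86 and 4.30 TPM in parent libraries, and BRIP1 had 13.49, 10.99 and 13.98 TPM in treated, against 10.95, 10.38 and 10.5 TPM in parent libraries. BARD1 had the highest log2 fold change of the 30 in this line (0.38, SE 0.13, limma adjusted p = 0.132), with 10.0, 10.7 and 8.36 TPM in treated libraries, against 8.18, 6.81 and 6.56 TPM in parent libraries. PALB2 had 6.47, 6.62 and 5.23 TPM in treated libraries, against 6.95, 5.42 and 6.04 TPM in parent libraries. Of these 4 genes, BARD1 and BRIP1 had every treated library above every parent library, and the other two overlapped. XRCC2 had 5.68, 6.05 and 4.86 TPM in treated libraries, against 5.33, 4.05 and 4.48 TPM in parent libraries, XRCC3 22.1, 23.0 and 27.1 TPM in treated, against 21.8, 25.5 and 21.7 TPM in parent libraries, and RAD51C 69.6, 57.8 and 55.0 TPM in treated, against 48.2, 56.0 and 57.9 TPM in parent libraries. RAD51B had the lowest log2 fold change in this line (-0.35, SE 0.15, limma adjusted p = 0.208), with 8.09, 8.30 and 8.59 TPM in treated libraries, against 8.93, 13.8 and 10.5 TPM in parent libraries. The paralogs other than RAD51B had overlapping groups. RAD54B had 13.1, 13.7 and 11.7 TPM in treated libraries, against 11.1, 9.59 and 14.2 TPM in parent libraries.

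Of the Fanconi genes in TPC-1, FANCI came nearest to the threshold. It had 60.9, 59.4 and 52.4 TPM in treated libraries, against 72.4, 63.0 and 69.0 TPM in parent libraries (-0.24, SE 0.079, limma adjusted p = 0.125), and with median-of-ratios scaling it passed as the only member (-0.30, adjusted p = 0.0311). FANCD2 had 19.8, 18.1 and 17.8 TPM in treated libraries, against 19.1, 17.0 and 16.0 TPM in parent libraries. The 2 clamp subunits thus had values on opposite sides of no change in this line. FANCG had 26.7, 26.8 and 26.0 TPM in treated libraries, against 26.8, 26.1 and 26.2 TPM in parent libraries, FANCL 17.8, 16.1 and 15.2 TPM in treated, against 16.7, 15.9 and 16.5 TPM in parent libraries, and FANCM 4.06, 3.59 and 3.35 TPM in treated, against 3.60, 2.75 and 3.60 TPM in parent libraries. FANCB had 3.30, 3.25 and 3.44 TPM in treated libraries, against 3.74, 3.30 and 3.30 TPM in parent libraries, and FANCE 3.58, 4.72 and 4.48 TPM in treated, against 3.76, 2.75 and 3.30 TPM in parent libraries. BLM had 7.05, 6.58 and 6.24 TPM in treated libraries, against 8.47, 6.55 and 9.27 TPM in parent libraries, and EME1 7.08, 5.59 and 5.84 TPM in treated, against 7.43, 5.24 and 5.70 TPM in parent libraries. All of these 7 had overlapping groups. FANCC, RMI1, FANCF and RAD51D were at 83.1%, 88.9%, 88.0% and 104% of their parent means.

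The response to selpercatinib differed between the lines for most members when the difference itself was tested. In a limma fit of all 12 libraries, with adjustment over 11996 genes, the log2 fold change in TPC-1 minus that in LC-2/ad passed for 25 of 30 members, every one higher in TPC-1, where 36.6% of all genes passed (22.2% higher and 14.4% lower). With mitochondrial transcripts removed the whole table divided into 2066 higher and 2302 lower, against 2660 and 1733 with them, and 24 members passed, all higher in TPC-1. The median difference was 1.09 over the members and 0.035 over all genes tested, and 17 differences exceeded 1. FANCA had the largest, 1.89 (SE 0.16, limma adjusted p = 1.67e-06), with 0.23 in TPC-1 and -1.67 in LC-2/ad. UBE2T followed with 1.80 (SE 0.11, limma adjusted p = 8.73e-08), with 0.21 in TPC-1 and -1.59 in LC-2/ad. EXO1 differed by 1.75 (SE 0.14), RAD54L by 1.72 (SE 0.16) and RAD51AP1 by 1.63 (SE 0.18). These 5 genes belong to 3 functional groups: the core complex with its E2, the strand exchange factors and the resection, dissolution and resolution genes. The differences of BRCA1 (1.38, SE 0.14), BRCA2 (1.26, SE 0.20) and FANCI (1.21, SE 0.10) were of similar size to one another.

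The difference did not pass for 5 members, and these include all 3 that did not pass in LC-2/ad. FANCF had -0.22 (SE 0.13, limma adjusted p = 0.213), RAD51B -0.10 (adjusted p = 0.739) and RAD51D 0.41 (adjusted p = 0.185). FANCC had 0.085 (95% interval -0.17 to 0.34), with -0.25 in TPC-1 and -0.33 in LC-2/ad. RMI1 had 0.33 (adjusted p = 0.0828), which passed with median-of-ratios scaling (0.37, adjusted p = 0.0345) and without LC-2/ad treated library 2 (0.42, adjusted p = 0.0289). RAD51D passed without LC-2/ad treated library 1 (0.59, adjusted p = 0.0460). At the edge of the threshold stood PALB2, at 0.49 (SE 0.17, limma adjusted p = 0.0417), which lost its call under 12 of 20 alternatives, with adjusted p from 0.0176 to 0.105 over all of them. FANCB, at 0.72 (adjusted p = 0.0203), lost it without LC-2/ad parent library 3 (0.63, adjusted p = 0.0548).

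**Figure D3:**
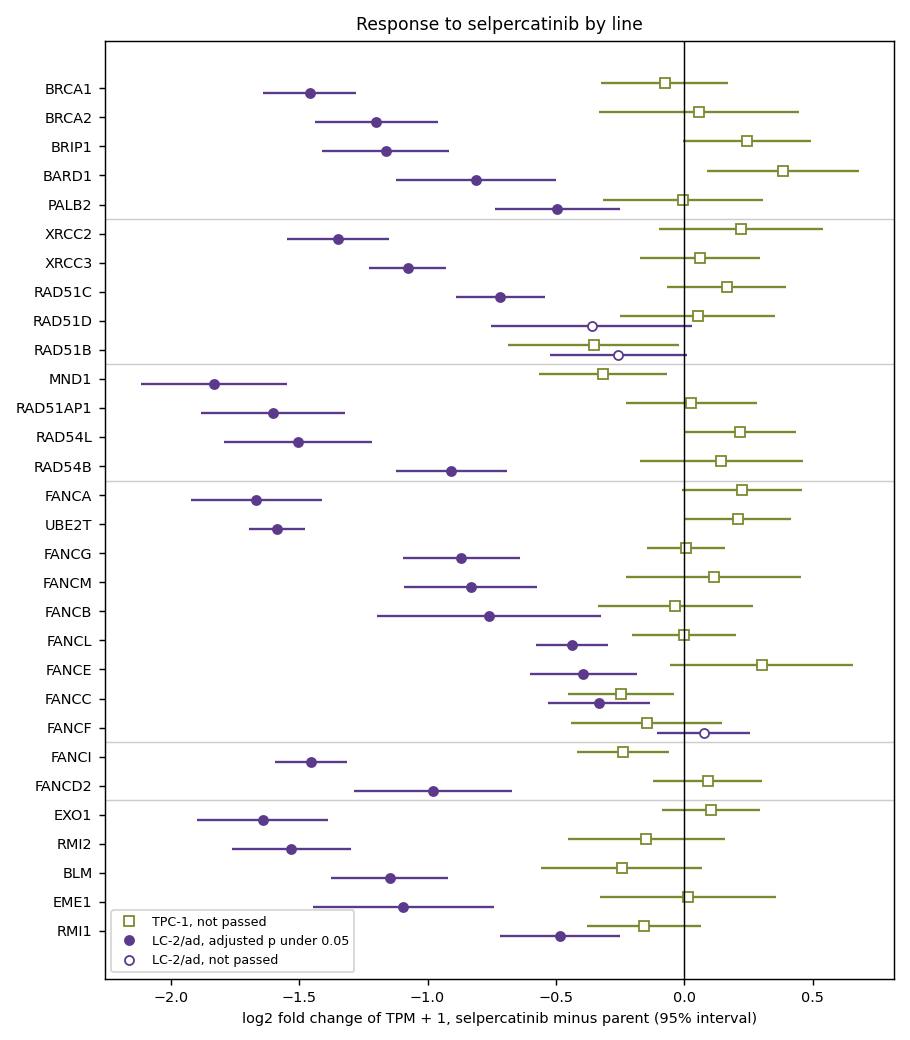
Log2 fold change of each gene, treated minus parent on the log2(TPM + 1) scale, with its 95% interval, for TPC-1 (green squares, above) and LC-2/ad (purple circles, below). Filled symbols passed the limma test and open symbols did not. The 27 filled points all lie left of 0, and the green points lie between -0.35 and 0.38.

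Levels in parent cells also differed between the lines. The tables were deposited separately and scaled within each library, so levels across them are given with no test. Parent TPM were higher in LC-2/ad than in TPC-1 for 26 of 30 members. After treatment 21 of 30 had a lower mean TPM in LC-2/ad than in TPC-1. The same shares over all genes were not taken, so whether these counts are particular to the members cannot be told. The summed treated level was 494 ± 22.7 TPM in TPC-1 and 352 ± 12.5 TPM in LC-2/ad, and the summed parent level 486 ± 16.5 TPM in TPC-1 and 767 ± 10.3 TPM in LC-2/ad (SD, n = 3 each).

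Partners within a complex fell by unequal amounts in LC-2/ad. Ratios of 8 pairs of partners within a library, which do not depend on scaling between libraries, are given for both lines. In TPC-1 the ratio of BARD1 to BRCA1 TPM was 0.458, 0.559 and 0.470 in treated libraries, against 0.369, 0.376 and 0.299 in parent libraries. In LC-2/ad the same ratio was 0.401, 0.385 and 0.501 in treated libraries, against 0.282, 0.265 and 0.286 in parent libraries. It was thus higher in every treated library of both lines than in any parent library of the same line. The ratio of FANCD2 to FANCI was likewise higher in treated libraries of both lines, with 0.305 to 0.339 in treated and 0.232 to 0.270 in parent TPC-1 libraries, and 0.312 to 0.445 in treated and 0.239 to 0.279 in parent LC-2/ad libraries. UBE2T to FANCL, the E2 enzyme over its ligase, was higher in every treated TPC-1 library and lower in every treated LC-2/ad library than in the parent libraries of the same line. It was 2.47, 3.13 and 2.66 in treated TPC-1 libraries, against 2.40, 2.25 and 2.42 in parent libraries, and 1.14, 1.20 and 1.16 in treated LC-2/ad libraries, against 2.69, 2.73 and 2.46 in parent libraries. PALB2 to BRCA2 averaged 1.497 ± 0.495 in treated and 1.53 ± 0.223 in parent TPC-1 cells, and 2.71 ± 0.333 in treated and 1.43 ± 0.180 in parent LC-2/ad cells (SD, n = 3 each). RMI1 to BLM averaged 1.80 ± 0.094 in treated and 1.68 ± 0.300 in parent TPC-1 cells, and 2.40 ± 0.299 in treated and 1.41 ± 0.092 in parent LC-2/ad cells. XRCC2 to RAD51D averaged 0.326 ± 0.027 in treated and 0.282 ± 0.019 in parent TPC-1 cells, and 0.575 ± 0.130 in treated and 1.24 ± 0.234 in parent LC-2/ad cells. XRCC3 to RAD51C averaged 0.402 ± 0.087 in treated and 0.427 ± 0.046 in parent TPC-1 cells, and 0.618 ± 0.044 in treated and 0.803 ± 0.080 in parent LC-2/ad cells. RAD51AP1 to RAD54L averaged 1.64 ± 0.401 in treated and 1.86 ± 0.208 in parent TPC-1 cells, and 1.25 ± 0.224 in treated and 1.31 ± 0.064 in parent LC-2/ad cells. No test was made of these ratios.

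Other repair genes place the members among their neighbours in LC-2/ad. Over all genes tested in this line 24.4% fell and 30.6% rose, with a median log2 fold change of 0.066. Of 42 further recombination and Fanconi factors tested, 22 fell (52.4%) and 6 rose (14.3%), with a median log2 fold change of -0.30. Those that rose were ABRAXAS1 (0.85), WDR48 (0.74), FAN1 (0.69), RAD52 (0.50), MUS81 (0.34) and ERCC1 (0.33). The largest change was in PSMC3IP (-1.48, SE 0.089), the binding partner of MND1, followed by the nuclease and helicase DNA2 (-1.18, SE 0.16) and HROB (-1.13, SE 0.13). Of 17 end joining genes, which seal breaks without a template, 8 fell and 1, TP53BP1, rose (median -0.30), led by POLQ, the polymerase of microhomology-mediated joining (-1.19, SE 0.12), PRKDC, the DNA-dependent protein kinase (-0.78, SE 0.073), and XRCC4 (-0.63, SE 0.075). Of 21 excision repair genes 8 fell and 3, ERCC5, XPC and SMUG1, rose (median -0.13). The largest changes were in UNG, a uracil glycosylase (-1.01, SE 0.059), PARP1 (-0.58, SE 0.047) and DDB2 (-0.50, SE 0.076). Of 7 mismatch repair genes 3 fell and none rose (median -0.19). Of 16 damage checkpoint genes 11 fell and 1, ATM, rose (median -0.46), the largest changes being in the kinase CHEK1 (-1.84, SE 0.058), its adaptor CLSPN (-1.58, SE 0.10) and the histone H2AX (-1.34, SE 0.050). The share of members that fell was larger in the 30 recombination and Fanconi genes than in any of these lists, and that contrast was not tested. The members and lists were chosen with earlier results of these data known, so the contrast may come from the choice. It does not extend to the proliferation markers described next, of which all 20 fell. Genes that rose within a list are named after their values were seen.

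Genes of the cell cycle moved in the same libraries. All 20 proliferation markers tested fell in LC-2/ad (median log2 fold change -1.67, from -2.10 to -0.83), where 24.4% of all genes tested fell. MKI67, the Ki-67 antigen of dividing cells, had 17.0, 16.7 and 17.2 TPM in treated libraries, against 59.8, 62.5 and 55.0 TPM in parent libraries (-1.74, SE 0.061, limma adjusted p = 6.98e-07). PCNA, the sliding clamp of DNA replication, had 69.1, 73.8 and 77.5 TPM in treated libraries, against 175, 174 and 179.5 TPM in parent libraries (-1.25, SE 0.049, limma adjusted p = 1.07e-06). PLK1 (-2.10), RRM2 (-2.04) and TOP2A (-1.98) had the largest changes of that list. Of 19 E2F and DREAM regulators, the factors that switch such genes on and off, 13 fell and 3, LIN37, RBL2 and TFDP2, rose, with MYBL2 (-1.63, SE 0.066), E2F1 (-1.60, SE 0.085) and FOXM1 (-1.59, SE 0.075) lowest. In TPC-1 none of these 20 markers and 19 regulators passed the limma test, and 2 and 3 of them had an unadjusted p under 0.05, 10.0% and 15.8% against 21.5% of all genes tested. MKI67 had 91.6, 79.9 and 92.3 TPM in treated TPC-1 libraries, against 92.2, 89.1 and 91.3 TPM in parent libraries, and PCNA 174, 174 and 162 TPM in treated, against 174, 175 and 168 TPM in parent libraries. The part of these cell cycle changes in the values of the 30 members was not tested.

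In TPC-1 the repair lists gave 3 passing genes in all, where 4.96% of all genes tested passed. Of 42 further recombination factors 1 fell (2.38%), and of 21 excision repair genes 1 fell and 1 rose (4.76% each). None passed of 16 end joining, 16 damage checkpoint and 7 mismatch repair genes. By direction, 1.21% of all genes tested fell and 3.75% rose. The shares that fell in the further recombination and excision repair lists were higher than that of all genes, each through 1 gene. The excision repair share that rose was also higher, again through 1 gene. These contrasts were not tested. SFR1, an accessory factor of strand exchange, fell (-0.56, SE 0.12, limma adjusted p = 0.0313), with 7.23, 5.94 and 6.91 TPM in treated libraries, against 10.9, 9.30 and 10.7 TPM in parent libraries. UNG fell (-0.33, SE 0.064, limma adjusted p = 0.0211), and ERCC2, a helicase of nucleotide excision repair, rose (0.33, SE 0.059, limma adjusted p = 0.0155).

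**Figure D4:**
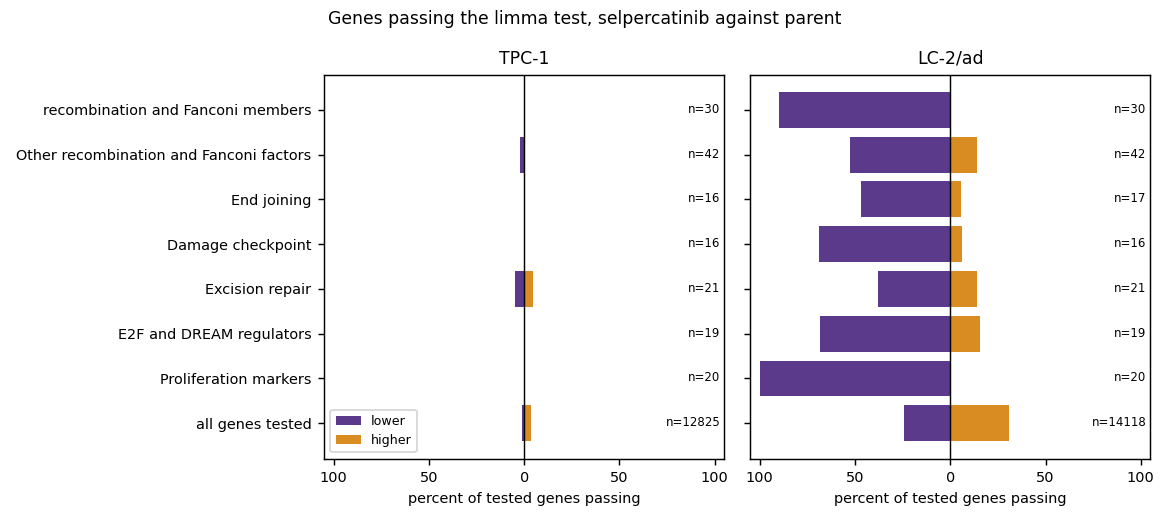
Percent of tested genes that passed the limma test in each list, lower to the left and higher to the right of 0, for TPC-1 and LC-2/ad. The number of genes tested stands at the right of each row, and the lowest row gives all genes tested. In LC-2/ad the 30 members reach 90.0% lower and the proliferation markers 100%, against 24.4% of all genes.

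The labels of the lines were checked against lineage markers. Lung markers (10 genes, among them NKX2-1 and NAPSA) summed to 0.581 to 0.970 TPM in treated and 0.495 to 0.838 TPM in parent TPC-1 libraries, with NKX2-1 listed at 0 in all 6, and to 459 to 473 TPM in treated and 451 to 471 TPM in parent LC-2/ad libraries. These near-equal sums in LC-2/ad hold changes in both directions: HOPX (1.87), SFTPA2 (1.27) and NKX2-1 (0.35) rose, and SLC34A2 (-0.26) and FOXA2 (-0.71) fell on the log2 scale. The thyroid list also holds NKX2-1, so its value of 0 in TPC-1 does not tell lung from thyroid. Of the 10 thyroid markers, 3 had a mean of at least 1 TPM in treated TPC-1 cells, and 3 in parent TPC-1 cells. Of the 3 thyroid markers tested in TPC-1, 2 did not pass, with a log2 fold change down to -0.41. The marker that passed, PAX8, was at 256 to 285 TPM in treated and 154 to 230 TPM in parent TPC-1 libraries (0.53, SE 0.12, limma adjusted p = 0.0458). But TG, TSHR and SLC5A5, genes of thyroid hormone production, did not exceed 1.42 TPM in any TPC-1 library. Summed thyroid markers were also present in LC-2/ad, at 231 to 241 TPM in treated and 150 to 159 TPM in parent libraries, where FOXE1 (1.56), DIO2 (1.47) and PAX8 (0.53) rose and HHEX (-0.53) fell. Blood, endothelial and fibroblast markers (11 genes) summed to 24.8 to 31.6 TPM in treated and 28.8 to 31.3 TPM in parent TPC-1 libraries, and to 39.9 to 46.6 TPM in treated and 32.1 to 37.7 TPM in parent LC-2/ad libraries. In LC-2/ad 2 of these 11, LUM (1.05) and CDH5 (0.59), rose on the log2 scale, both at under 5 TPM. The part of these marker changes in the members' values was not tested. Libraries held 12554 to 12967 genes at 1 TPM or more in TPC-1 and 13713 to 14336 in LC-2/ad.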

How the data were processed

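RNA-seq of 12 libraries was deposited by the authors as TPM per gene, with the lines in separate tables whose columns total 1000000. Per the submitters' processing notes bcl2fastq 2.20.0, Salmon and GRCh38 were used, with roles, annotation and strand setting not given in the sources used here. TPM keep no read counts, so depth is unknown and no counting interval is given. Symbols came from an identifier table (92.5% of identifiers matched) and gene coordinates from GENCODE 29 (GRCh38). Within each line log2(TPM + 1) was compared by limma 3.58.1 in R 4.3.3 (lmFit, eBayes with variance trend, two-sided, mean TPM 1 or more), Benjamini-Hochberg over all genes tested, threshold 0.05. Lines were compared by the interaction term. The test was also tried on simulated normal values with the spread of the parent libraries in both groups. Real treated libraries may differ from that setting, its outcome is not given here, and no conclusion is drawn from it. Promoter windows came from RefSeq. Named genes were all members, up to 3 passing genes with the largest change per further list, MKI67 and PCNA. Genes that rose within a list, lineage and other cell type markers and genes overlapping a member were named outside this rule, after their values were seen. The members and lists were chosen with earlier results of these data known. Tables and figures used Python 3.11.15, pandas 2.3.3 and matplotlib 3.10.9. Alternatives were pseudocounts, filters, scalings, the variance model, a replicate block and leaving out each library. Of 43 listed further recombination factors, FIRRM had no matching symbol. Groups came from the sample labels. Some genes of the further lists are not reported here.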

Additional observations from a re-analysis of the deposited data

Results flagged for a closer look

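For 25 members the response to treatment differed between the lines by limma's interaction test (log2 fold change in TPC-1 minus that in LC-2/ad, adjusted over 11996 genes). Among core complex genes the differences were 1.89 for FANCA, 1.80 for UBE2T, 0.95 for FANCM, 0.87 for FANCG, 0.72 for FANCB, 0.69 for FANCE and 0.44 for FANCL. For strand exchange factors they were 1.72 for RAD54L, 1.63 for RAD51AP1, 1.52 for MND1 and 1.05 for RAD54B. In the BRCA group they were 1.41 for BRIP1, 1.38 for BRCA1, 1.26 for BRCA2, 1.19 for BARD1 and 0.49 for PALB2. Resection, dissolution and resolution genes gave 1.75 for EXO1, 1.38 for RMI2, 1.11 for EME1 and 0.90 for BLM. Paralogs gave 1.57 for XRCC2, 1.14 for XRCC3 and 0.88 for RAD51C, and the ID2 pair 1.21 for FANCI and 1.07 for FANCD2. Groups held 3 libraries each, too few for a search for single outlying libraries.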

How the results depend on the processing

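In LC-2/ad the 27 members that fell passed with the same sign under every alternative in which they were tested, and the count was 27 to 28 with each library left out. In TPC-1 the count was 0 under each alternative except median-of-ratios scaling, where it was 1 (FANCI), and it stayed at 0 with each library left out. The count of differences between the lines was 23 to 25 with each library left out, 21 of the 25 members tested at a mean of at least 5 TPM, and 24 with the replicate number as a block. The numbers did not pair the samples (correlations of same-numbered deviations -0.048 to 0.054), and under the replicate block 0 members passed in TPC-1 and 27 in LC-2/ad. Values near 0 changed sign. With median-of-ratios scaling the LC-2/ad value of FANCF became -0.012. That of FANCG in TPC-1 became -0.050, EME1 -0.033, RAD51AP1 -0.027 and RAD51D -0.0020. With mitochondrial transcripts removed FANCG in TPC-1 became -0.0042. With single libraries left out the TPC-1 values ranged from -0.089 to 0.21 for BRCA2, -0.073 to 0.14 for EME1, -0.059 to 0.012 for FANCB, -0.0034 to 0.019 for FANCG, -0.060 to 0.047 for FANCL, -0.079 to 0.086 for PALB2, -0.096 to 0.12 for RAD51AP1, -0.034 to 0.18 for RAD51D and -0.023 to 0.14 for XRCC3, and the difference between the lines from -0.23 to 0.060 for RAD51B. E2F-type matches numbered 4 of 27 members in the 250 bases before a start alone, a shorter window (928 of 27305 genes, 3.40%). MND1 and RMI1 counted there through a second listed start. Over all genes in TPC-1, 636 passed, against 272 with no filter, 356 with no variance trend and 292 to 815 with single libraries left out. The cause of these changes was not tested. TPM without read counts give no limit for low genes such as FANCB.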

Other observations

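Genes that share the members' loci were listed separately in the tables. POLG, the mitochondrial DNA polymerase on the strand opposite FANCI, had 57.0, 57.7 and 71.6 TPM in treated TPC-1 libraries, against 28.1, 24.6 and 33.3 TPM in parent libraries (log2 fold change 1.09, SE 0.12, limma adjusted p = 0.00181). In the same libraries FANCI had lower values in treated than in parent cells, without passing. In LC-2/ad, where FANCI fell, POLG had a log2 fold change of 0.055 (SE 0.13, limma adjusted p = 0.742). KLC1, a kinesin light chain opposite XRCC3, rose in TPC-1 (0.47, SE 0.097, limma adjusted p = 0.0297), and LRRC41, opposite RAD54L, rose in LC-2/ad (0.23, SE 0.052, limma adjusted p = 0.00654) where RAD54L fell. LRRC59, opposite EME1, fell in LC-2/ad (-0.38, SE 0.037, limma adjusted p = 8.42e-05). The pseudogene BRCA1P1 was listed at 0 in all 3 treated TPC-1 libraries and at 2.89, 2.69 and 7.81 TPM in parent libraries, and is uncertain because it resembles BRCA1. These genes were chosen for their position after their values could be seen. Whether reads were assigned by strand was not tested.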
